A study of Mus musculus with 16 samples.

Results

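Sox genes encode transcription factors that bind DNA through a high-mobility-group (HMG) box related to that of the testis-determining factor Sry. 10 of them that drive lineage choice were examined, Sox1, Sox3, Sox14, Sox21, Sox4, Sox11, Sox8, Sox9, Sox10 and Sox18, out of 26180 mouse gene symbols with curated RefSeq transcripts. They were chosen by name, and every peak within 2500 bp of their start sites or over their gene bodies was collected. All 10 had a single annotated start site in the curated RefSeq set, which gave 1 window around each, 2500 bp to either side, and no member was left out for low values.

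The chromatin maps came from R1 mouse embryonic stem cells (ESCs) carrying a MycER transgene, a Myc protein fused to an estrogen receptor domain that 4-hydroxytamoxifen (OHT) switches on. LIF-ESCs were kept in 100 units per ml of the cytokine LIF without OHT, and Myc-ESCs in 50 nM OHT without LIF. Both cultures carried the transgene, and the samples differed in LIF and OHT together, so these cannot be told apart. The 16 libraries, 2 for each culture and antibody plus 4 inputs, stand behind 6 deposited lists of peaks for H3K4me3, H3K27me3 and Suz12, 1 list per culture and antibody. The lists hold positions and a score per peak but no read counts and no value per library. Depth is therefore unknown, replicate error cannot be estimated, and all values below are descriptions without a test.

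H3K4me3 is deposited at promoters, mostly at CpG-rich ones, and accompanies transcription or readiness for it. Suz12 is a core subunit of Polycomb repressive complex 2, which places H3K27me3, a mark of repressed genes. In ESCs many developmental genes carry H3K4me3 and Polycomb marks at the same start sites, a state called bivalent, and lineage Sox genes are among the textbook cases.

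The whole lists set the scale for what follows. The H3K27me3 list was short in LIF-ESCs, with 3120 peaks against 16717 in Myc-ESCs, and its peaks were small, with median lengths of 157 and 162 bp. The lists of the other antibodies were closer in size, with 32469 and 30345 peaks for H3K4me3 and 11305 and 13907 for Suz12. Of 8 genes that mark pluripotent cells, all 8 had an H3K4me3 peak in both cultures and 1 had a Suz12 peak. H3K27me3 peaks lay at 0 of the 8 in LIF-ESCs and at 2 in Myc-ESCs (Esrrb and Tfcp2l1). Suz12 lay at all 4 neural and 5 mesoderm and endoderm markers in each list, against 12.1% (LIF-ESC) and 14.6% (Myc-ESC) of all genes. The LIF-ESC list had H3K27me3 at 1 neural marker and the Myc-ESC list at 3. For mesoderm and endoderm markers these counts were 2 and 4. Suz12 was thus not particular to the Sox genes.

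The promoter sequences of the members at both ends of the H3K27me3 range show how CpG-rich these start sites were. The RefSeq promoter table for GRCm38.p6 held 6 of the 10 members (Sox1, Sox4, Sox8, Sox11, Sox14 and Sox21), and each line below gives the 250 bases before the start site, 5′ to 3′ on the gene's strand, with CG dinucleotides in capitals. Sox1 had the most bases covered by H3K27me3 in Myc-ESCs, and Sox4 and Sox11 had none. Sox14, picked once its values had been seen, was the member with H3K4me3 in Myc-ESCs only. The intervals are chr8:12395269-12395518 on the plus strand for Sox1, and on the minus strand chr13:28953700-28953949 for Sox4, chr12:27342719-27342968 for Sox11 and chr9:99876171-99876420 for Sox14.
Sox1: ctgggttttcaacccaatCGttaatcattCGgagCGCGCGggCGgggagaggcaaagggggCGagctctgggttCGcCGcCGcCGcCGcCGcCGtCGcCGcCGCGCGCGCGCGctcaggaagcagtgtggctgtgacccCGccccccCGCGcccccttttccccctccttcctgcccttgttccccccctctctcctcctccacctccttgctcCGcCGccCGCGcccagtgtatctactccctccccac
Sox4: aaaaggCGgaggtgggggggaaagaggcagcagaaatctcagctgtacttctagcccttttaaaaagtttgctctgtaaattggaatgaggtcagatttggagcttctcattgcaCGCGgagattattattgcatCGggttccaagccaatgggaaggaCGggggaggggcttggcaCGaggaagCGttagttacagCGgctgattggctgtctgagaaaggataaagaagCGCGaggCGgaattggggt
Sox11: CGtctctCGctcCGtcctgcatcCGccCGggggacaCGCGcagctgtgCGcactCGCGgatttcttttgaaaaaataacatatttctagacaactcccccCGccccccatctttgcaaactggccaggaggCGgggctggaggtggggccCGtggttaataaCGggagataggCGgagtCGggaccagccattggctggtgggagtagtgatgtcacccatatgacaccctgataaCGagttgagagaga
Sox14: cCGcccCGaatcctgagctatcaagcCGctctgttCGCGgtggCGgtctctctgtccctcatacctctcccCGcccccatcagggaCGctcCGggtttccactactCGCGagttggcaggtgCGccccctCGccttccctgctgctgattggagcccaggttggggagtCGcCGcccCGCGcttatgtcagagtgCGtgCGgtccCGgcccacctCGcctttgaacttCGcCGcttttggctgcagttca

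Over the 300 bases of the table entry, which adds 50 bases after the start site, Sox1 held 37 CG dinucleotides and Sox4 held 12. Sox14 held 26, Sox21 held 22, and Sox8 and Sox11 held 21 each. All 6 were above the median of 7 over 32851 promoters, and 5 of the 6 (all but Sox4) were above the median of 19 over the 3858 promoters of genes with Suz12 in either culture. The observed over expected CpG ratio ran from 0.647 at Sox8 to 1.07 at Sox1, with a median of 0.752 against 0.384 for all promoters and 0.680 for promoters of Suz12 genes. The promoter with the fewest CG dinucleotides of the 6 was thus that of Sox4, while the lowest ratio was that of Sox8, with Sox4 at 0.679. A link between CpG content and the marks was not tested.

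The hexamer CACGTG, the palindromic E-box that Myc binds with its partner Max, was present in 1 of the 6 promoters, that of Sox8, and in 7.15% of all promoters. Its letters read the same on both strands. The promoter is printed with CACGTG in capitals (chr17:25570687-25570936, minus strand), since it was the only match among the members, a choice made after the search.
Sox8: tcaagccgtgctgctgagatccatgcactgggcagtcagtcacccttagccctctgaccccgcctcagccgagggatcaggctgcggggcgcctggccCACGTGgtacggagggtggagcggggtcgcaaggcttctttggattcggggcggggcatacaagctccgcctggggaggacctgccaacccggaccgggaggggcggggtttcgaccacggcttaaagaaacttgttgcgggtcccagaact
The TATA-box word TATAAA, searched on both strands, was found in 0 of the 6 and in 13.6% of all promoters.

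A peak is printed as an example of the sequence under H3K27me3. The strongest one of at most 300 bp at the start site of a member in Myc-ESCs lay upstream of Sox9, at chr11:112780335-112780567, 1875 to 1643 bp before the start site, with a score of 114. Its 233 bases are given on the plus strand, which is the strand of Sox9, again with CG dinucleotides in capitals.
Sox9 peak: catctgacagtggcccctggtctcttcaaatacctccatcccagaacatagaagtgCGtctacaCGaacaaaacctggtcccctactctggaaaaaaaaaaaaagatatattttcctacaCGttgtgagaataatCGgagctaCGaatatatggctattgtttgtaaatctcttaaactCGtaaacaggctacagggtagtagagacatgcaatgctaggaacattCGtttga
It held 7 CG dinucleotides at 40.8% G+C, with an observed over expected ratio of 0.727.

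H3K4me3 was present at nearly all members in both cultures, Suz12 likewise, and H3K27me3 was the mark whose list differed most between the cultures at these genes. An H3K4me3 peak lay at 9 of 10 start sites in LIF-ESCs, where 62.2% of all genes had one, and at 10 of 10 in Myc-ESCs (63.3% of all genes). Suz12 peaks lay at 10 of 10 in LIF-ESCs (12.1% of all genes) and at 9 of 10 in Myc-ESCs (14.6%). H3K27me3 peaks lay at 2 of 10 in LIF-ESCs (3.82% of all genes), Sox1 and Sox14, and at 6 of 10 in Myc-ESCs (10.7%), Sox1, Sox8, Sox9, Sox14, Sox18 and Sox21. Sox3, Sox4, Sox10 and Sox11 had no H3K27me3 peak in either list.

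Taken by combination, 1 member (Sox1) carried all 3 marks in LIF-ESCs and 6 did in Myc-ESCs, against 2.77% and 8.87% of all genes. Sox8, Sox9, Sox18 and Sox21 had H3K4me3 with Suz12 in LIF-ESCs and all 3 marks in Myc-ESCs. Sox14 had H3K27me3 with Suz12 in LIF-ESCs and likewise all 3 in Myc-ESCs. Sox3, Sox10 and Sox11 held H3K4me3 with Suz12 in both cultures, and Sox4 had that pair in LIF-ESCs and H3K4me3 alone in Myc-ESCs.

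**Figure D1:**
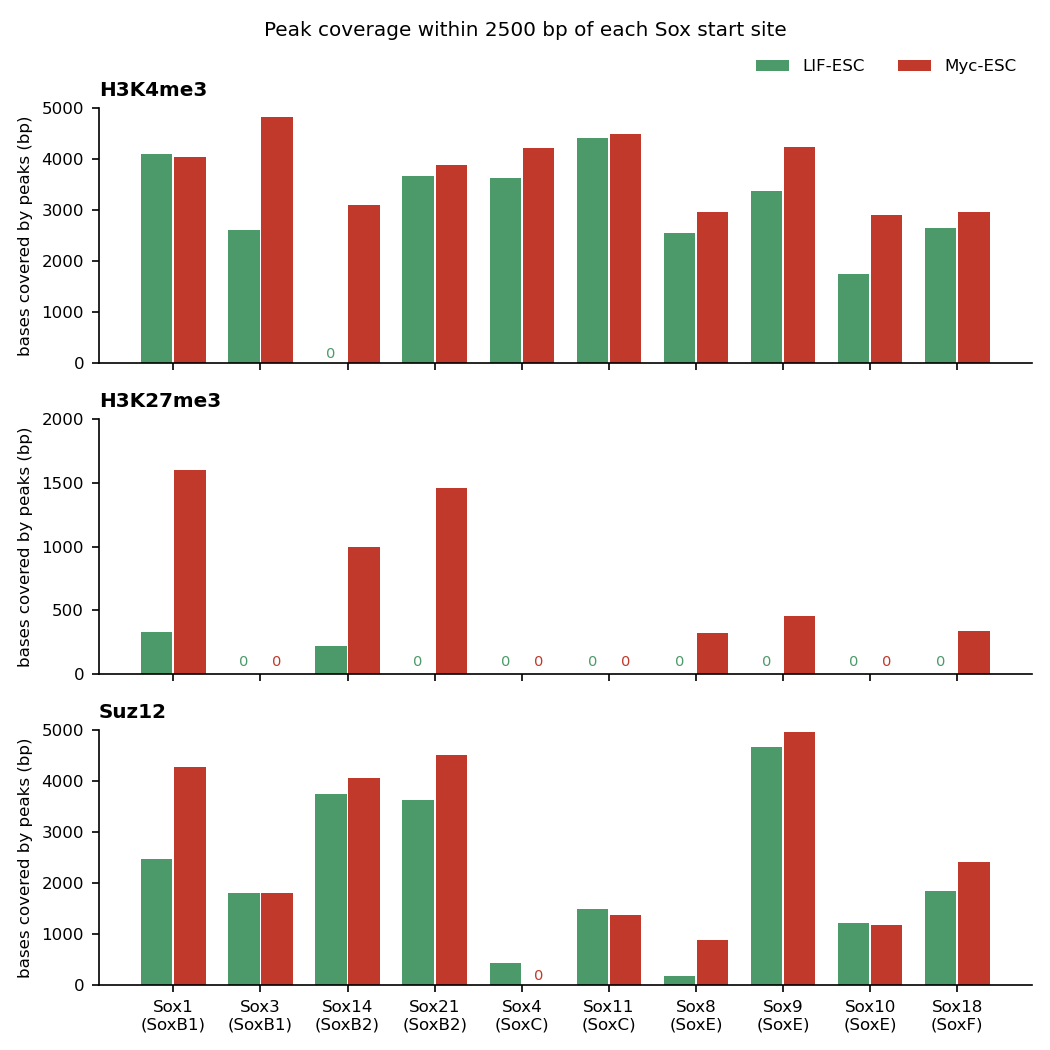
Bases covered by peaks in the window of 2500 bp on each side of each start site (vertical axes, bp), for H3K4me3, H3K27me3 and Suz12, with LIF-ESCs in green and Myc-ESCs in red. Each bar is 1 peak list with no replicate error, and genes are ordered by HMG-box subgroup. H3K27me3 bars stand at 6 genes in Myc-ESCs and at 2 in LIF-ESCs, while Suz12 bars stand at all 10 genes in LIF-ESCs.

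The SoxB1 genes Sox1 and Sox3 are switched on in early neural progenitors and keep them undifferentiated. Sox1 (gene ID 20664, chromosome 8, plus strand, 12395519 to 12399555) is a single-exon gene. It was the member with the widest H3K27me3, which covered 327 bp of the window in LIF-ESCs and 1603 in Myc-ESCs. Its Suz12 peaks covered 2465 bp in LIF-ESCs against 4282 in Myc-ESCs. Its H3K4me3 peak covered 4096 and 4050 bp. The pattern continued outside the window: within 10000 bp on each side of the start site, H3K27me3 formed 5 peaks over 1187 bp in LIF-ESCs and 28 peaks over 9293 bp in Myc-ESCs. Over the same 20001 bp, Suz12 covered 12356 bp in LIF-ESCs in 13 peaks and 17181 bp in Myc-ESCs in 7 peaks. Thus Suz12 at Sox1 formed fewer and longer blocks in Myc-ESCs. The longest reaching into the 20001 bp was 5268 bp against 4164 bp in LIF-ESCs, and the longest touching the window 5244 bp against 2400 bp. By score, its H3K4me3 peak ranked above 72.2% of the LIF-ESC list and above 44.4% of the Myc-ESC list. Of the H3K27me3 list, chromosome 8 held 17.1% for LIF-ESCs and 9.90% for Myc-ESCs, against 5.55% and 5.52% of the H3K4me3 lists, and the part of this in the Sox1 values was not tested.

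Sox3 (gene ID 20675), on the minus strand of the X chromosome from 60891366 to 60893430, looked different from Sox1 in the same lists. It had no H3K27me3 peak in the window or within 10000 bp, and the nearest lay 70095 bp from its start site in Myc-ESCs. Its Suz12 peaks covered 1802 bp in both cultures, made up of 8 LIF-ESC peaks and 7 Myc-ESC peaks, none longer than 556 bp. Its H3K4me3 peak covered 2609 bp in LIF-ESCs against 4821 in Myc-ESCs, which was the largest difference in H3K4me3 among the 9 members with the mark in both cultures. The start site of Gm38438 lies 223 bp away on the other strand, so H3K4me3 of these genes cannot be told apart. The X chromosome held 0.705% of H3K27me3 peaks in LIF-ESCs, against 2.41% of Suz12 peaks. In Myc-ESCs it held 1.5% and 2.76%, and the part of this in the Sox3 values was not tested.

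The SoxB2 genes Sox14 and Sox21 act as repressors, and Sox21 counteracts SoxB1 factors during neurogenesis. Sox14 (gene ID 20669, chromosome 9, minus strand, 99874106 to 99876170), which marks classes of interneurons, was the only member without an H3K4me3 peak in LIF-ESCs, where the nearest lay 197119 bp away. In Myc-ESCs an H3K4me3 peak of 3094 bp covered its start site. A peak in Myc-ESCs only was seen at 2.35% of all genes. That peak had a score of 188, above 34.6% of its list, which placed it among the weaker H3K4me3 peaks of the members. Suz12 at Sox14 covered 3742 bp in LIF-ESCs in 5 peaks and 4062 bp in Myc-ESCs in 1 peak. H3K27me3 covered 222 bp in LIF-ESCs and 994 in Myc-ESCs, in 1 and 6 peaks.

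Sox21 (gene ID 223227, chromosome 14, minus strand, 118233233 to 118237030) had the second widest H3K27me3 in Myc-ESCs, 1459 bp, and none in LIF-ESCs, where the nearest peak was 198411 bp away. Most of it was 1 peak of 1241 bp at chr14:118237661-118238901, which ran from 1871 to 631 bp upstream of the start site with a score of 464, above 98.8% of its list. Within 10000 bp on each side there were 11 H3K27me3 peaks over 4173 bp in Myc-ESCs and 0 in LIF-ESCs. Suz12 was already broad in LIF-ESCs, at 3636 bp of the window, and covered 4504 bp in Myc-ESCs. H3K4me3 covered 3670 and 3876 bp, in peaks that ranked above 80.0% and 69.0% of their lists by score. The start site of Gm4675, transcribed in the opposite direction, lies 798 bp inside Sox21, so signal there cannot be told apart between them.

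The SoxC genes Sox4 and Sox11 act in the survival and differentiation of neuronal and mesenchymal progenitors. Both are single-exon genes, and both had the broadest H3K4me3 peaks of the set. At Sox4 (gene ID 20677, chromosome 13, minus strand, 28948919 to 28953699), 1 H3K4me3 peak of 8503 bp in LIF-ESCs and 9207 in Myc-ESCs took in the whole gene. By score it ranked above 86.9% and 88.8% of the lists. Its score of 3100 was shared in both lists by peaks of Sox2 and Sox12, and such ties are not counted as lower. Suz12 at Sox4 was 2 short peaks in LIF-ESCs, covering 436 bp with a highest score of 94.6, and none in Myc-ESCs, where the nearest Suz12 peak was 1182588 bp away. Of the genes with Suz12 in LIF-ESCs, 10.6% had none in Myc-ESCs. Both Sox4 peaks were under a score of 100, so at that limit Sox4 counted as free of Suz12 in both cultures, as did Sox8 in LIF-ESCs, and 8 members had Suz12 there (8.25% of all genes) and 9 in Myc-ESCs (11.3%).

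Sox11 (gene ID 20666, chromosome 12, minus strand, 27334268 to 27342718) kept Suz12 in both lists. Its H3K4me3 peak had a length of 7042 bp in LIF-ESCs and 8173 in Myc-ESCs. Its Suz12 peaks covered 1494 bp of the window in LIF-ESCs and 1372 in Myc-ESCs, all downstream of the start site and beginning 512 and 570 bp from it. No H3K27me3 peak lay within 10000 bp in either culture, and the nearest was 760009 bp away in Myc-ESCs.

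The SoxE genes Sox8, Sox9 and Sox10 act in neural crest, glia and, for Sox9, cartilage and testis. Sox9 (gene ID 20682, chromosome 11, plus strand, 112782210 to 112787757) had the widest Suz12 of the set, 4673 bp of the window in LIF-ESCs and 4967 in Myc-ESCs. H3K27me3 covered none of the window in LIF-ESCs but 459 bp of it in Myc-ESCs. That count hides peaks further into the gene: over the gene body, LIF-ESCs had 4 H3K27me3 peaks over 709 bp and Myc-ESCs 5 peaks over 1817 bp. The strongest of these, chr11:112785363-112786285, had a score of 573 in Myc-ESCs, against 114 for the strongest peak at the start site, so a window of 2500 bp missed most of the mark at Sox9. H3K4me3 covered 3383 bp of the window in LIF-ESCs and 4238 in Myc-ESCs.

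Sox8 (gene ID 20681, chromosome 17, minus strand, 25565893 to 25570686) had the narrowest Suz12 of the set in LIF-ESCs, 1 peak of 176 bp over the start site that scored above 17.0% of its list. In Myc-ESCs its Suz12 covered 890 bp, and the strongest peak scored above 77.9% of that list. H3K27me3 covered 321 bp in Myc-ESCs in 2 peaks, the stronger with a score of 67.8, and none in LIF-ESCs. H3K4me3 covered 2547 and 2954 bp. The start sites of Cerox1 lie 125 and 143 bp away on the other strand, within the same H3K4me3 peak, and the marks of these genes cannot be told apart.

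Sox10 (gene ID 20665, chromosome 15, minus strand, 79154913 to 79164490), a factor of neural crest and oligodendrocytes, had 1 Suz12 peak in each culture, of 1224 bp in LIF-ESCs and 1171 in Myc-ESCs, just downstream of its start site. Their scores ranked above 88.6% and 87.0% of the respective lists. The start site of Gm10863, on the other strand, lies 1576 bp away within the window. No H3K27me3 peak lay within 10000 bp in either list. Its H3K4me3 peak covered 1748 bp in LIF-ESCs, the lowest of the 9 members with one, and 2914 bp in Myc-ESCs. The Suz12 peaks of Sox10 thus ranked high in both lists without an H3K27me3 peak beside them.

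Sox18 (gene ID 20672, chromosome 2, minus strand, 181669837 to 181671640), the SoxF member, acts in blood and lymphatic vessels. Suz12 formed 1 peak over its start site, of 1853 bp in LIF-ESCs and 2404 in Myc-ESCs. H3K27me3 covered 341 bp in Myc-ESCs in 2 peaks, with scores of 60.3 and 53.5, and none in LIF-ESCs. H3K4me3 covered 2659 bp in LIF-ESCs and 2970 in Myc-ESCs. Its H3K27me3 peaks were the weakest, by highest score, among the 6 members with the mark in Myc-ESCs.

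**Figure D2:**
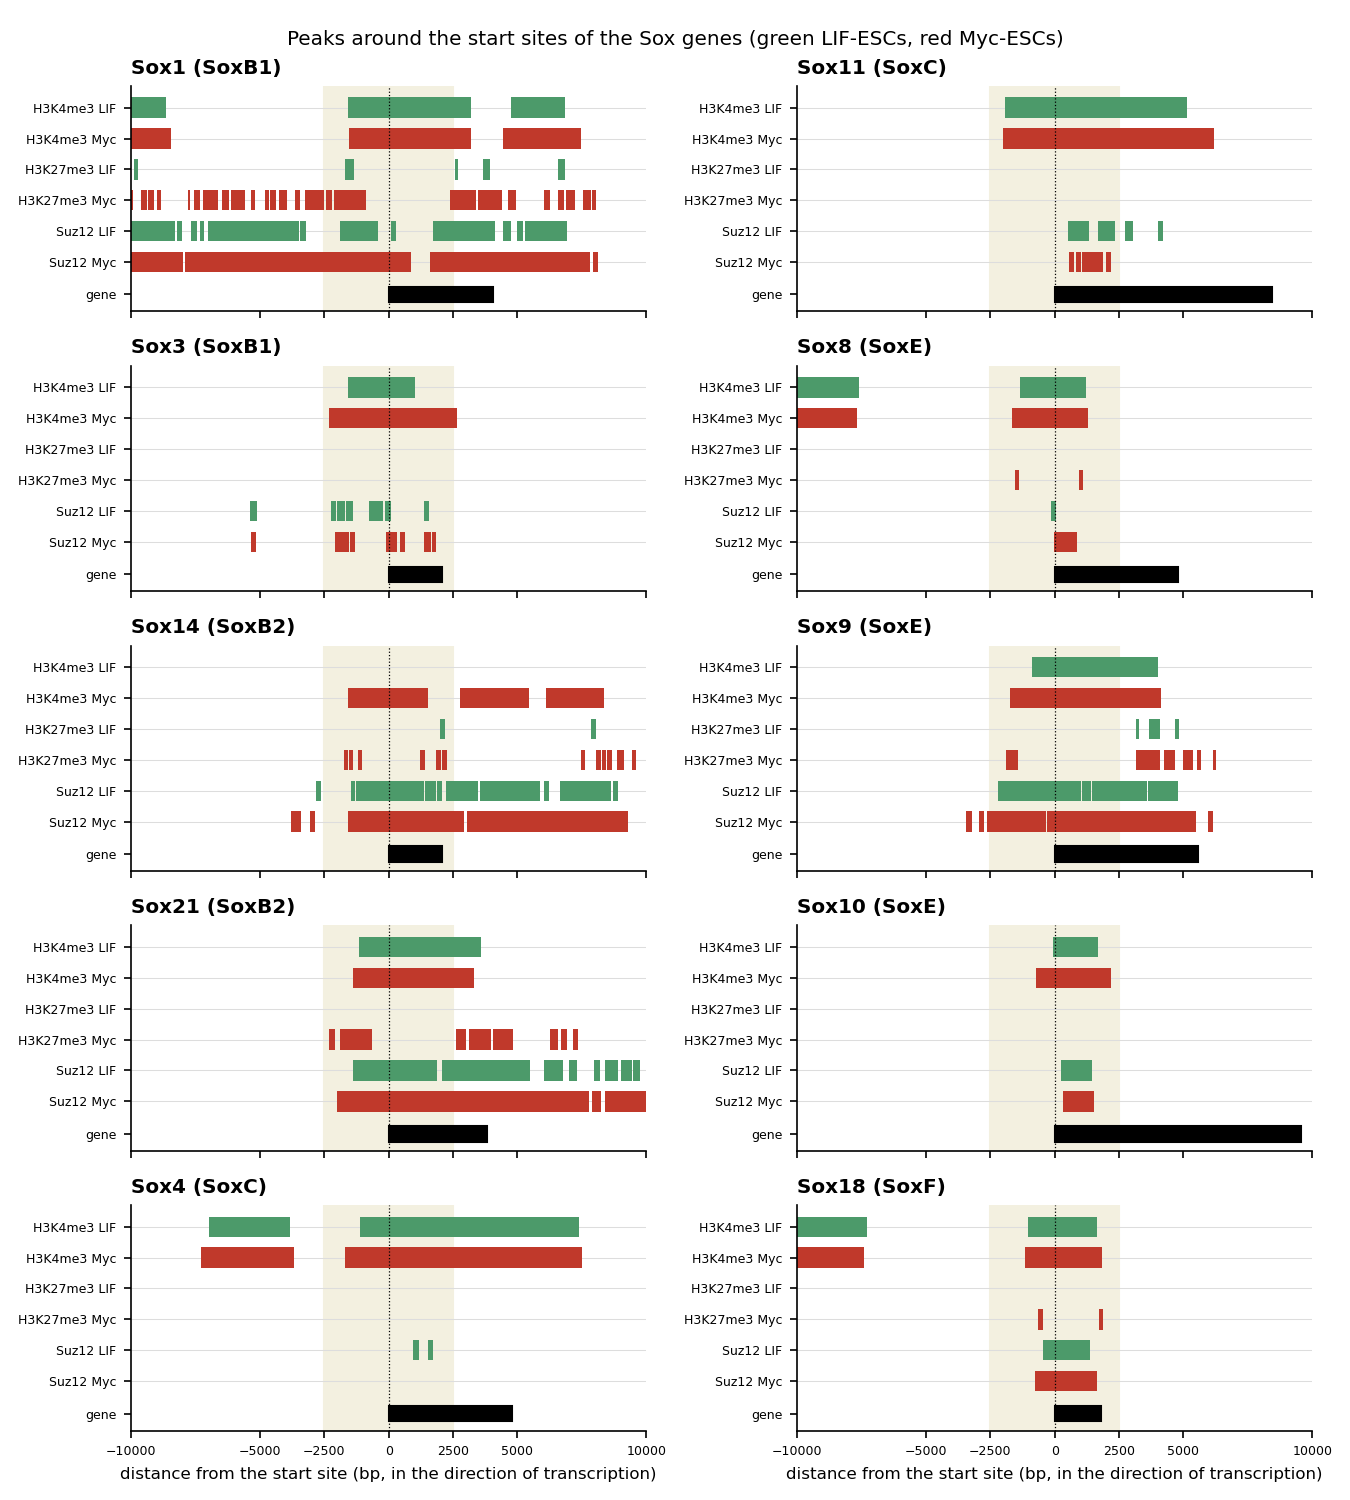
Peaks within 10000 bp of the start site of each gene, drawn in the direction of transcription (horizontal axis, bp from the start site), with LIF-ESC peaks in green, Myc-ESC peaks in red, the gene in black and the window of 2500 bp on each side shaded. Suz12 blocks of Sox1, Sox9, Sox14 and Sox21 run on well past the window, with H3K27me3 peaks on both sides of the start site and none over it.

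Summed over the set, each mark covered more bases of the windows in Myc-ESCs, but not at every gene. H3K4me3 covered more in Myc-ESCs at 9 of 10 members (65.1% of genes with the mark in either culture, 86.9% of genes with Suz12 in both) and less at Sox1. Summed over the set, H3K4me3 covered 28761 bp in LIF-ESCs and 37619 in Myc-ESCs. When the window was narrowed to 1000 bp on each side, 3 members (Sox9, Sox10 and Sox14) had more in Myc-ESCs. At the others the H3K4me3 peak filled this narrower window in both cultures, so no difference could show there. At 6 members the whole difference thus lay more than 1000 bp from the start site. Suz12 covered more in Myc-ESCs at 6 members (79.3% of genes with the mark in either culture), less at Sox4, Sox10 and Sox11, and the same at Sox3. With 1000 bp on each side, Suz12 covered more in Myc-ESCs at 4 members (Sox1, Sox8, Sox18 and Sox21). It covered less at 5 (Sox3, Sox4, Sox9, Sox10 and Sox11), at Sox9 only by the gap between peaks 343 and 308 bp upstream. The sum over the set did not fall, with 10511 bp in LIF-ESCs and 12136 in Myc-ESCs. The median difference, Myc-ESCs minus LIF-ESCs, was 493 bp for H3K4me3 and 307 bp for Suz12, against 150 and 412 bp over all genes with the mark in either culture.

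H3K27me3 covered more in Myc-ESCs at all 6 members that had it in either culture, and 90.6% of all such genes did the same. Summed over the set it covered 549 bp in 2 peaks in LIF-ESCs and 5177 bp in 18 peaks in Myc-ESCs. Within 2500 bp of the start site, the mark was seen in Myc-ESCs only at 4 members (Sox8, Sox9, Sox18 and Sox21) and at 7.65% of all genes. Sox9 had H3K27me3 further into its body in LIF-ESCs, and with 5000 bp on each side it was marked in both cultures. Of the 7 members with Suz12 in both cultures and no H3K27me3 in LIF-ESCs, 4 had it in Myc-ESCs, near the 64.4% of the 2026 genes of that kind. When the Myc-ESC H3K27me3 list was shortened to the 3120 peaks with the highest scores, the length of the LIF-ESC list, 4 members kept the mark (Sox1, Sox9, Sox14 and Sox21) and 3 of them had more than in LIF-ESCs, while Sox14 had less. Over all genes the shortened list marked 3.53% in Myc-ESCs, against 3.82% in LIF-ESCs. Sox8 and Sox18 were thus marked only by lower-scoring peaks. At a score of at least 100, H3K27me3 lay at 1 member in LIF-ESCs (Sox1) and at the same 4 in Myc-ESCs, against 0.458% and 3.73% of all genes.

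Members with broad Suz12 in LIF-ESCs all had H3K27me3 in Myc-ESCs, as did most genes with Suz12 that broad. The mark was also seen at 2 members with narrower Suz12 (Sox8 and Sox18). Sox1, Sox9, Sox14 and Sox21 had at least 2000 bp of Suz12 in LIF-ESCs. All 4 had H3K27me3 in Myc-ESCs, as did 91.7% of the 808 genes with that much. Sox1 and Sox14 already had H3K27me3 in the window in LIF-ESCs, and Sox9 had it over its body. Sox3, Sox10, Sox11 and Sox18 had at least 1000 but under 2000 bp, and 1 of these 4 (Sox18) had H3K27me3, against 74.5% of 736 genes. Sox4 and Sox8 were below the median of 967 bp over the 3156 genes with Suz12 in LIF-ESCs, and Sox8 had H3K27me3, as did 49.9% of the genes at or under that median. Of the 9 members with Suz12 in Myc-ESCs, 6 had H3K27me3 there, close to the 63.3% of all Suz12 genes.

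**Figure D3:**
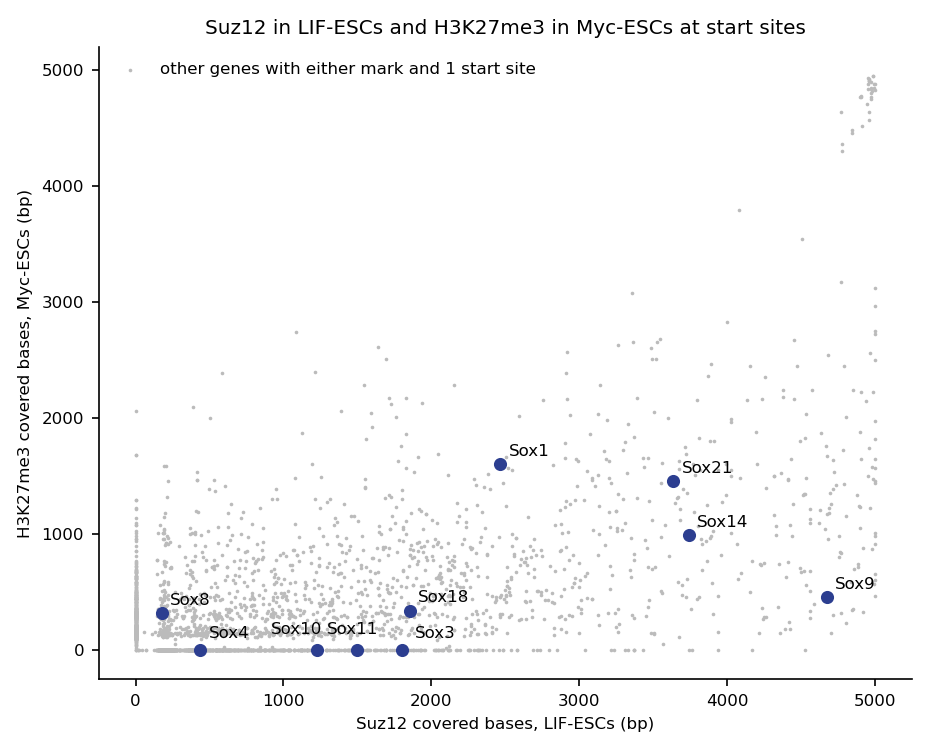
Bases covered by Suz12 in LIF-ESCs (horizontal axis, bp of the window) against bases covered by H3K27me3 in Myc-ESCs (vertical axis, bp of the window), with the 10 Sox genes in blue and other genes with either mark and 1 start site in grey. The 4 Sox genes to the right of 2000 bp all lie above 0, and Sox3, Sox4, Sox10 and Sox11 lie on the axis at 0.

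The number of Suz12 peaks and the bases they covered went in opposite directions. At the 10 start sites there were 32 Suz12 peaks over 21501 bp in LIF-ESCs and 24 peaks over 25454 bp in Myc-ESCs. Sox1, Sox9, Sox14 and Sox21 each had fewer Suz12 peaks and more covered bases in Myc-ESCs, which held for 26.5% of the 2822 genes with Suz12 in both cultures. By score, the strongest Suz12 peak of each of the 4 ranked above 97.0 to 98.2% of the list in LIF-ESCs and above 96.1% in Myc-ESCs, where all 4 shared a score of 3100 with many other peaks. Counting Suz12 peaks at the start site or over the body, 30 of the 36 in LIF-ESCs overlapped a peak in Myc-ESCs, and 20 of them lay inside a single Myc-ESC peak.

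H3K27me3 lay beside the start sites and not over them, as at most genes with the mark. None of the 18 Myc-ESC peaks at the 6 marked members covered a start site, a position taken by an H3K27me3 peak at 3.84% of genes with the mark. The nearest edges were 466 bp away at Sox18, 631 at Sox21, 871 at Sox1, 943 at Sox8, 1042 at Sox14 and 1414 at Sox9. Their median of 907 bp was close to the 883 bp over all 2811 genes with the mark. 12 of the 18 peaks lay upstream and 6 downstream. Suz12, in contrast, lay over the start site of 6 of 10 members in LIF-ESCs and 7 of 9 in Myc-ESCs (39.5% and 48.9% of Suz12 genes), and H3K4me3 over that of every member that had it (95.0% and 95.2%).

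The same arrangement shows in the cover by distance. In Myc-ESCs, H3K27me3 covered 6.25% of the bases within 1000 bp of the start sites of the 6 members and 24.6% of those from there to 2500 bp. Over the 2191 genes with the mark and 1 start site the values were 8.80% and 14.7%. For Suz12 in Myc-ESCs the members' shares were 67.4% inside and 49.3% outside, against 48.0% and 25.7% over genes with Suz12 and 1 start site. H3K4me3 filled 98.6% of the inner bases of all 10 members in Myc-ESCs, near the 92.6% over genes with the mark and 1 start site. Most H3K27me3 peaks still overlapped the other marks: 13 of the 18 overlapped an H3K4me3 peak and 13 a Suz12 peak of the same culture (72.2% each), against 60.3% and 62.7% over all genes.

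The peaks were also sorted by gene structure, for these genes only, and no share over all genes was computed. Counting every peak at the start site or over the gene body, H3K27me3 in Myc-ESCs made 27 peaks and 10169 bp, of which 40.9% was upstream of the gene, 47.2% in 3′ UTR and 8.61% downstream. Sox1, Sox9 and Sox21 held 33.5%, 34.8% and 22.2% of the 3′ UTR bases, and Sox1 and Sox21 held 1465 and 1459 bp of the upstream bases, so these shares rest mainly on 3 genes. Coding sequence made up 1.52% of the H3K27me3 bases, introns 1.72% and 5′ UTR none. Suz12 peaks in Myc-ESCs (43440 bp) were spread differently, with 15.7% in coding sequence, 7.93% in 5′ UTR and 18.0% in 3′ UTR. H3K4me3 peaks in Myc-ESCs (49611 bp) had 20.3% in coding sequence and 24.1% in 3′ UTR. In LIF-ESCs the 8 H3K27me3 peaks of Sox1, Sox9 and Sox14 lay 64.9% in 3′ UTR, and all 8 overlapped an H3K27me3 peak in Myc-ESCs, while 7 of the 27 Myc-ESC peaks overlapped one in LIF-ESCs. Over the gene bodies, H3K27me3 was present at 3 members in LIF-ESCs (4.04% of all genes) and at 6 in Myc-ESCs (11.1%).

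**Figure D4:**
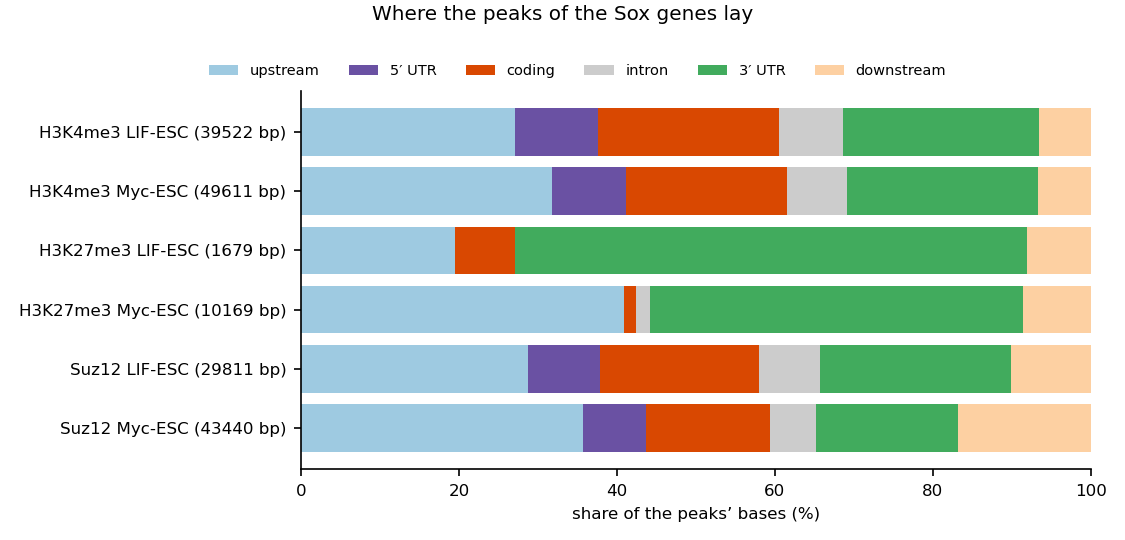
Share of the bases of all peaks at the start sites or over the bodies of the Sox genes (horizontal axis, %) by position relative to the gene, 1 bar for each list with its total bp. H3K27me3 peaks have no 5′ UTR and little coding sequence, where the H3K4me3 and Suz12 bars show both.

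The 10 further Sox genes of the mouse (Sox2, Sox5, Sox6, Sox7, Sox12, Sox13, Sox15, Sox17, Sox30 and Sry) differed in how many carried Suz12. A Suz12 peak lay at 5 of these 10 in each culture (Sox6, Sox7, Sox13, Sox17 and Sox30), against 10 and 9 of the lineage set. Because the lists were chosen with earlier results of these data known, this contrast describes the lists and was not tested. H3K27me3 lay at 3 in LIF-ESCs (Sox6, Sox17 and Sox30) and at 4 in Myc-ESCs, with Sox7 added, against 3.82% and 10.7% of all genes. In LIF-ESCs their highest scores were 67.7, 76.2 and 57.0, so none kept the mark at a score of at least 100. Sox30 (81.6) was under that limit in Myc-ESCs too. Sox7, a SoxF gene like Sox18, had 974 bp of H3K27me3 in Myc-ESCs, against 341 bp at Sox18. Sox2, the SoxB1 gene of the pluripotency network, had H3K4me3 in both cultures and neither Suz12 nor H3K27me3, whereas its relatives Sox1 and Sox3 had Suz12. Sox13, a SoxD gene, shared with Sox3, Sox10 and Sox11 the pair of H3K4me3 and Suz12 without H3K27me3 in both lists. Its Suz12 peaks were weaker than theirs, with highest scores of 77.8 (LIF-ESC list, 183 bp) and 77.0 (Myc-ESC list, 542 bp). Sox13 thus had no Suz12 at a score of at least 100, a limit at which Sox3, Sox10 and Sox11 kept it. Suz12 at Sox30 was also under that limit in LIF-ESCs, with a highest score of 63.9.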

How the data were processed

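H3K4me3, H3K27me3 and Suz12 ChIP-sequencing reads were aligned by the authors with Bowtie2 2.2.3 to GRCm38, keeping unique best hits, and peaks were called over background with MACS 1.4.2 at default settings. The deposited score of each peak, a p-value measure on a log scale made by the authors, served to rank peaks within a list, given as the share of the list that scored lower, and to set a minimum of 100, which also depends on depth. Apart from that minimum, which was the same for all lists, the score was not compared between lists. Pooling of libraries before peak calling is not given in the sources used here. Python 3.11.15, pandas 2.3.3, numpy 2.4.6 and matplotlib 3.10.9 were used. Genes counted as marked where a peak shared at least 1 bp with the 2500 bp on either side of a start site of 45756 curated RefSeq transcripts. Covered bases were summed per window, with coordinates counted from 1. The interval code was tested on simulated data, where 0 of 2000 windows differed from a plain count. All members are named, as are other Sox genes with Polycomb marks, neighbours with start sites in a window, and Sox genes needed to complete the family. Members and gene lists were chosen with earlier results of these data known. Counts were repeated with scores from 100 upward, lists of equal length, windows of 1000 and 5000 bp, all RefSeq transcripts and GENCODE M21. No test was run. Expression, Myc binding and input reads were not analysed here.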

Additional observations from a re-analysis of the deposited data

How the results depend on the processing

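The 9 counts over the Sox genes (members with each mark in each culture, and members with more covered bases in Myc-ESCs) were recomputed under 6 alternatives, which gave 54 values, and 50 of these stayed within 1.5 times the reported count. Members with H3K27me3 in LIF-ESCs numbered 1 at a score of at least 100 (Sox1 alone) and 0 with 1000 bp on each side, against 2 as reported. Members with more H3K27me3 in Myc-ESCs numbered 3 with lists of equal length and members with more H3K4me3 3 with 1000 bp on each side, against 6 and 9. At the other members the H3K4me3 peak filled the narrower window in both cultures, so no difference could show. With 1000 bp on each side, members with more Suz12 in Myc-ESCs numbered 4 and those with less 5, against 6 and 3. The bases summed over the set were still more in Myc-ESCs, 12136 against 10511 bp. With 5000 bp on each side Sox9 joined the members with H3K27me3 in LIF-ESCs, and the GENCODE M21 and all RefSeq transcripts gave the reported genes for each mark. Limits of depth cannot be stated, since the lists hold no read counts. No replicate could be left out, since each list is 1 set of peaks. No paired analysis was possible because the lists hold no values per library and no test was run.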
